A study of Rattus rattus with 23 samples.

Results

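The genes described here are 44 genes of DNA replication and S phase, the part of the cell cycle in which chromosomes are copied. They were found by gene symbol in the probe table of the array, and each was read from its probe set with the highest mean of log2(signal + 16). Of the 44 genes, 39 were measured, among 14217 genes with a probe set of 1 symbol, and 37 passed the filter for testing, a level above the median of the array on at least 3 arrays. Cdc6, Cdc7, Dbf4 and Gins2 were not analysed here, and Rrm2 was read only by probe sets that it shares with Rrm2l1. Orc1 and Uhrf1 were measured but were below the filter, so their values are given without a test.

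To copy its genome, a cell first licenses origins: ORC, Cdc6 and Cdt1 load the Mcm2-7 helicase onto DNA. Kinases, Cdc45, GINS and Mcm10 then start the helicase, primase and the DNA polymerases extend the strands on the Pcna clamp, and flap removal and ligation join the pieces of the lagging strand. Many of these genes are targets of E2F transcription factors and are transcribed around the entry into S phase, and in airway epithelium such cycling is seen mostly in basal and secretory cells, above all during repair after injury.

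Male Sprague-Dawley rats breathed air or 200 ppm hydrogen sulfide (H2S), an irritant gas that blocks the last enzyme of the respiratory chain, through a nose-only system for 3 h a day. Respiratory epithelium of the nose was taken by laser capture from the site of injury and regeneration, and RNA from each animal was amplified in 2 rounds and hybridised to 1 Affymetrix array. The groups were air at 24 h (4 animals, 15 to 18), air at 144 h (4 animals, 19 to 22) and H2S at 3 h (4 animals, 3 to 6), 6 h (3 animals, 8 to 10), 24 h (4 animals, 11 to 14) and 144 h (4 animals, 23 to 26) after the first exposure began. The groups at 3 h, 6 h and 24 h had 1 day of exposure and both groups at 144 h had 5 days, so time and number of exposures cannot be told apart. No genotype other than the strain is given, the age is 60 days in the sample labels and 10 weeks in the design text, and the design text counts 24 rats where 23 arrays were analysed here. The protocol text of animals 6, 14 and 18 gives 5 days of treatment, against the 3 h or 24 h of their titles, which were used here.

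Arrays had been scaled to a trimmed mean signal of about 500 each, and 2 of them stood apart. The correlation of an array with the 22 others had a median of 0.427 for animal 18 (air, 24 h) and of 0.741 for animal 22 (air, 144 h), while for the remaining 21 arrays it ran from 0.857 to 0.917. Counts and medians that rest on these animals are given with and without them, as are the changes of named genes that move by over 1.5 times. Median signals ran from 136 to 341, and the RNA integrity numbers that the labels give for 19 animals ran from 1.7 to 10. As means over each list, markers of ciliated cells (8 measured, group means 1.47 to 3.33 log2 units above the mean of all probe sets) and of secretory cells (9 measured, 1.70 to 3.22) were high in every group. Secretory genes were unequal: group means in log2(signal + 16) were 15.43 to 16.98 for Bpifa1. For Scgb1a1, which was below the filter, they were 4.78 to 6.57. The mean of a list of stroma, vessel, cartilage and bone genes was also high in every group (9 measured, 3.86 to 4.74), so the captured tissue held other cells than epithelium. Its genes were unequal: group means in log2(signal + 16) were 14.81 to 15.90 for the collagen gene Col1a1. For the bone genes Bglap and Ibsp these means were 13.31 to 14.60 and 13.60 to 14.62. They were 6.64 to 7.46 for the vessel gene Pecam1 and 5.60 to 8.88 for the cartilage gene Col2a1. In such bulk samples, fewer cells of a type and less RNA per cell cannot be told apart.

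The animals killed 24 h after the start of a single H2S exposure had the highest levels of replication genes. For 30 of the 39 genes the H2S 24 h group had the highest mean of the 6 groups, and for none the lowest. Against air at 24 h, 34 of the 39 changes were above 0, with a median of 1.15 log2 units, where 54.9% of all tested probe sets were above 0 with a median of 0.07. None of the 37 tested genes passed an adjusted p of 0.05 in this comparison (limma, Benjamini-Hochberg), where 0.0101% of all probe sets did. At an unadjusted p under 0.05, 20 genes were higher and 0 lower, against 4.80% of all probe sets higher and 3.29% lower. For 13 genes, Uhrf1 among them, all H2S 24 h arrays lay above all air 24 h arrays, against 2.22% of all probe sets, and for 0 genes all lay below, against 1.57%. Such counts without overlap, here and below, are over all 39 genes, also Orc1 and Uhrf1, while the shares are of probe sets that passed the filter.

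**Figure D1:**
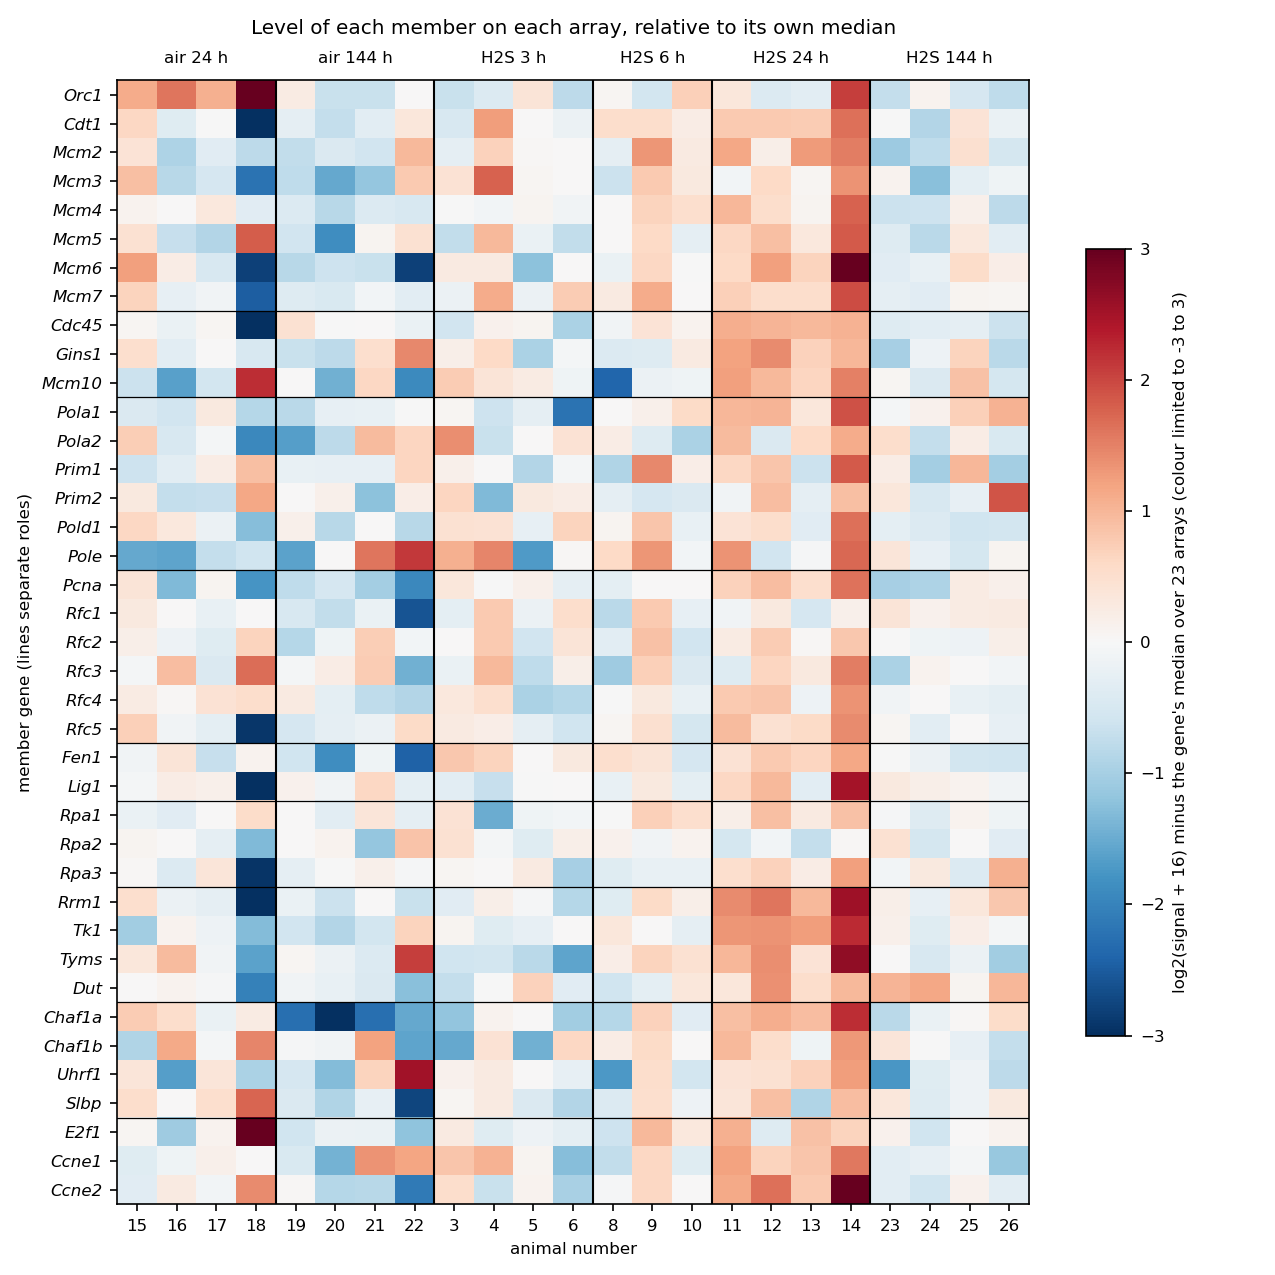
Level of the 39 measured genes (rows, grouped by role) on the 23 arrays (columns, grouped by exposure and time), as log2(signal + 16) minus the gene's median over all arrays, with red above and blue below it. The 4 columns of H2S at 24 h are mostly red, animal 14 lies above the median for 39 of 39 genes, and animal 18 has the lowest level of all arrays for 15 genes.

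The excess at 24 h was spread over the 4 exposed animals, but unevenly. Animals 11 and 12 lay above the gene's median over all arrays for 34 of the 39 genes each, animal 13 for 28 and animal 14 for 39. Animal 14 was the highest of all 23 arrays for 21 genes, and its RNA integrity number of 10 was also the highest, against 2.6 to 5.5 in the other 3 animals of its group. With the RNA integrity value as a term of the fit, over 19 arrays, the median change against air was 1.08 and 32 of 39 changes were above 0. These arrays leave out air animal 15, which has no such value. In them the change of Tk1 was 1.74 with the term (adjusted p = 0.601) and 1.99 without it (adjusted p = 0.239). That of Rrm1 was 2.89 with the term and 3.20 without it. The mean of the 39 genes relative to all probe sets of the array was 1.31, 1.52, 1.05 and 2.43 log2 units in animals 11 to 14. It was 0.99, 0.44, 0.70 and -0.24 in air animals 15 to 18, and no air animal reached the lowest H2S 24 h animal. The highest H2S 6 h animal did, at 1.09 against the 1.05 of animal 13, while the highest at 3 h and 144 h of H2S were 0.87 and 0.86. Animal 9, at 6 h, lay above the gene's median for 29 genes, against 28 for animal 13. Without animal 14 the median change against air was 0.87, with 33 of 39 changes above 0 and 12 genes higher at an unadjusted p under 0.05, against 2.89% of all probe sets in that fit.

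On the air side the comparison leans on animal 18, which was the lowest of all arrays for 15 of the genes and the highest for 6. Without animals 18 and 22 the median change was 0.85, 35 of 39 changes were above 0, and 20 genes were again higher at an unadjusted p under 0.05, against 3.47% of all probe sets. In that fit Tk1 passed the adjusted threshold, as described with its values. With animal 18 alone left out, 16 genes had no overlap with air, against 4.07% of all probe sets, and 14 were higher at an unadjusted p under 0.05, against 2.64%. Of the 39 changes, 20 moved by over 1.5 times without animal 18, in both directions, and 3 turned sign, those of Rfc3, Rpa2 and E2f1. Values of single genes are given below in the order of the animal numbers, as levels in log2(signal + 16), and changes are differences of group means on that scale.

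Among the genes for entry into S phase, both E cyclins, partners of Cdk2 at the G1/S boundary, had higher means at 24 h. Ccne2 read 8.72, 9.25, 8.39 and 11.10 in the H2S 24 h animals and 7.27, 7.87, 7.51 and 9.02 in air at 24 h, a change of 1.45 (SE 0.534, adjusted p = 0.603). Its levels were 8.12, 6.92, 7.69 and 6.62 at 3 h, 7.56, 8.23 and 7.59 at 6 h and 7.27, 7.0, 7.73 and 7.28 at 144 h of H2S, and 7.63, 6.74, 6.76 and 5.47 in air at 144 h. The H2S 24 h arrays lay above every other exposed array, while air animal 18 overlapped them, and without animal 14 the change was 0.87. Ccne1 read 8.55, 8.02, 8.18 and 8.93 at 24 h of H2S against 6.99, 7.22, 7.51 and 7.35 in air, with no overlap and a change of 1.16 (SE 0.544, adjusted p = 0.612). Elsewhere Ccne1 read 8.19, 8.39, 7.43 and 6.07 at 3 h, 6.61, 7.97 and 6.97 at 6 h, 7.03, 7.09, 7.29 and 6.20 at 144 h and 6.89, 5.93, 8.70 and 8.54 in air at 144 h, and air animals 21 and 22 and H2S animals 3 and 4 lay within the H2S 24 h range. E2f1, the activator of many S phase promoters, read 8.96, 7.51, 8.77 and 8.56 at 24 h of H2S and 7.95, 6.84, 8.01 and 11.12 in air. Its change was -0.03 (SE 0.602, adjusted p = 0.989), and the single air array at 11.12 was animal 18, without which the change was 0.85. In the other groups E2f1 read 8.17, 7.53, 7.75 and 7.60 at 3 h, 7.27, 8.85 and 8.20 at 6 h, 8.03, 7.30, 7.89 and 7.99 at 144 h and 7.30, 7.71, 7.69 and 6.70 in air at 144 h, which overlap.

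Of the origin licensing genes, 8 were measured and 7 had higher means at 24 h of H2S than in air, with a median change of 1.29. Mcm2, a subunit of the replicative helicase, read 9.89, 8.91, 10.01 and 10.27 in the H2S 24 h animals against 9.15, 7.80, 8.39 and 7.96 in air, a change of 1.44 (SE 0.458, adjusted p = 0.562). It read 8.46, 9.42, 8.78 and 8.74 at 3 h, 8.47, 10.05 and 9.01 at 6 h, 7.65, 7.97, 9.22 and 8.21 at 144 h and 7.99, 8.29, 8.16 and 9.71 in air at 144 h. Animal 12 lay inside the air range, and the other 3 exposed animals lay above every air array. Mcm7, another helicase subunit, read 11.04, 10.84, 10.84 and 12.27 at 24 h against 10.99, 10.08, 10.22 and 7.85 in air, a change of 1.47 (SE 0.502, adjusted p = 0.579), or 0.82 without animal 18. Its levels were 10.14, 11.44, 10.14 and 11.09 at 3 h, 10.59, 11.43 and 10.32 at 6 h, 10.06, 9.98, 10.41 and 10.39 at 144 h and 9.92, 9.87, 10.24 and 10.01 in air at 144 h, and animal 14 stood alone above all of them. Cdt1, the loading factor that is destroyed once S phase begins, read 9.42, 9.42, 9.39 and 10.29 at 24 h against 9.24, 8.26, 8.62 and 5.34 in air. Its change was 1.76 (SE 0.582, adjusted p = 0.575) with no overlap, and 0.92 without animal 18. Cdt1 read 8.14, 9.89, 8.63 and 8.46 at 3 h, 9.15, 9.15 and 8.85 at 6 h, 8.62, 7.74, 9.04 and 8.44 at 144 h and 8.36, 7.91, 8.32 and 8.98 in air at 144 h, where animal 4 at 3 h was the only array to reach the H2S 24 h range.

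Mcm3 had its highest mean at 3 h, by less than the spread within either group above that at 24 h. Its levels were 8.19, 9.54, 7.83 and 7.77 at 3 h, 7.13, 8.55 and 8.05 at 6 h, 7.69, 8.36, 7.81 and 9.12 at 24 h and 7.88, 6.50, 7.47 and 7.63 at 144 h of H2S. In air it read 8.66, 6.93, 7.27 and 5.56 at 24 h and 7.0, 6.24, 6.61 and 8.56 at 144 h, so exposed and air arrays overlapped at every time. Its change against air at 24 h was 1.14, and 0.63 without animal 18. The other Mcm subunits differed from air at 24 h by 0.83 (Mcm4), 0.75 (Mcm5) and 1.83 (Mcm6). Without animal 18 the change was 1.30 for Mcm5 and 1.04 for Mcm6, and without animal 14 that of Mcm4 was 0.52 and that of Mcm5 0.44. Orc1, a subunit of the origin recognition complex, was the exception among the licensing genes, with a change of -1.57 (SE 0.601, not tested), which was -0.84 without animal 18. Its levels were near the floor of the scale in most groups, and air animals 15 to 18 read 6.05, 6.54, 5.99 and 9.12, above all exposed arrays but animal 14 at 7.01.

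All 3 measured origin firing genes had higher means at 24 h, with a median change of 1.24. Cdc45, the helicase's partner in the moving fork, had the tightest values of the list in the H2S 24 h animals, 10.48, 10.41, 10.36 and 10.42. In air at 24 h it read 9.43, 9.18, 9.45 and 5.62, a change of 2.00 (SE 0.56, adjusted p = 0.447) that was 1.06 without animal 18. It read 8.80, 9.52, 9.47 and 8.44 at 3 h, 9.28, 9.80 and 9.50 at 6 h, 9.0, 9.05, 9.11 and 8.73 at 144 h and 9.84, 9.36, 9.38 and 9.19 in air at 144 h, so the 4 H2S 24 h arrays lay above the other 19. Mcm10, a scaffold of the fork, read 8.26, 7.98, 7.66 and 8.54 at 24 h of H2S and 6.37, 5.40, 6.47 and 9.22 in air, where animal 18 was the highest of all arrays. The change was 1.24 (SE 0.671, adjusted p = 0.612), and 2.03 without that animal. Mcm10 read 7.78, 7.41, 7.27 and 6.89 at 3 h, 4.64, 6.85 and 6.88 at 6 h, 7.08, 6.59, 7.91 and 6.48 at 144 h and 7.02, 5.58, 7.65 and 5.10 in air at 144 h. Gins1, a subunit of the GINS complex, did not overlap with air and differed by 1.15 (SE 0.466, adjusted p = 0.612).

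The polymerase and primase genes all had means above air at 24 h, from 0.35 for Prim2, the large primase subunit, to 1.73 for Pole, the catalytic subunit of the leading-strand polymerase. Pole read 7.71, 5.79, 6.31 and 8.08 at 24 h of H2S against 4.82, 4.77, 5.64 and 5.75 in air, with no overlap and a change of 1.73 (SE 0.713, adjusted p = 0.612). It was as high at 6 h, with 6.94, 7.68 and 6.27, and read 7.43, 7.82, 4.66 and 6.38 at 3 h and 6.72, 6.10, 5.83 and 6.43 at 144 h. In air at 144 h Pole read 4.74, 6.35, 7.96 and 8.47, a wider spread than that of the H2S 24 h animals, and the air 24 h group had the lowest mean of the 6 groups. Pola1, the catalytic subunit of the polymerase that extends primers, read 9.75, 9.77, 9.08 and 10.66 at 24 h against 8.33, 8.17, 9.04 and 7.91 in air, without overlap and with a change of 1.45 (SE 0.436, adjusted p = 0.516). The remaining changes against air were 0.99 for Pola2, 0.61 for Prim1 and 0.70 for Pold1, each with overlapping groups. With animal 18 left out the change was 0.49 for Pola2, 0.32 for Pold1 and 0.73 for Prim2. Without animal 14 it was 0.34 for Pold1, 0.22 for Prim1 and 0.17 for Prim2.

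Of the sliding clamp and its loader, the clamp gene did not overlap with air at 24 h and the 5 loader genes did. Pcna, the clamp that holds polymerases on DNA, read 12.77, 12.98, 12.56 and 13.70 in the H2S 24 h animals against 12.44, 10.74, 12.15 and 10.30 in air, a change of 1.59 (SE 0.446, adjusted p = 0.447). It read 12.40, 12.06, 12.21 and 11.81 at 3 h, 11.77, 12.06 and 12.09 at 6 h, 11.07, 11.15, 12.30 and 12.21 at 144 h and 11.29, 11.57, 11.05 and 10.13 in air at 144 h, all below the lowest H2S 24 h array of 12.56. The 5 subunits of the loader had changes of -0.06 (Rfc1), 0.38 (Rfc2), -0.00 (Rfc3), 0.39 (Rfc4) and 1.5 (Rfc5) at 24 h. With animal 18 left out the change was 0.75 for Rfc5, 0.57 for Rfc2 and 0.38 for Rfc3. Without animal 14 that of Rfc4 was 0.18 and that of Rfc3 -0.34. The change of Rfc1 was 0.21 with quantile normalization and that of Rfc3 was 0.10, so neither has a stable sign. Rfc1, the large subunit of the loader, read 9.11, 9.52, 8.73 and 9.38 at 24 h, 8.92, 10.00, 9.04 and 9.76 at 3 h, 8.42, 10.01 and 8.97 at 6 h and 9.62, 9.34, 9.46 and 9.50 at 144 h of H2S. In air it read 9.52, 9.24, 9.0 and 9.22 at 24 h and 8.75, 8.47, 9.01 and 6.64 at 144 h, where animal 22 was the lowest of all arrays.

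Both genes of Okazaki fragment processing had higher means at 24 h. Fen1, the nuclease that trims flaps on the lagging strand, read 8.17, 8.52, 8.38 and 8.91 against 7.62, 8.12, 7.04 and 7.83 in air, without overlap and with a change of 0.84 (SE 0.418, adjusted p = 0.612). Its other levels were 8.55, 8.40, 7.73 and 8.02 at 3 h, 8.24, 8.13 and 7.22 at 6 h, 7.72, 7.55, 7.17 and 7.13 at 144 h and 7.14, 5.88, 7.61 and 5.30 in air at 144 h. The air 144 h group had the lowest Fen1 mean of all groups. Lig1, the ligase that joins the fragments, differed by 1.91 (SE 0.689, adjusted p = 0.595), and by 0.84 without animal 18, which read 5.83. The single-strand binding proteins that coat unwound DNA differed by 0.55 (Rpa1), 0.06 (Rpa2) and 1.40 (Rpa3), and each overlapped with air. Without animal 18 the Rpa3 change was 0.66, and that of Rpa2 turned to -0.25, so it has no stable sign.

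The nucleotide supply genes had the largest median change of the roles at 24 h, 1.80 over 4 genes. Tk1, the S phase kinase that salvages thymidine, read 10.21, 10.23, 10.13 and 11.12 in the H2S 24 h animals and 7.85, 8.98, 8.73 and 7.59 in the air 24 h animals. All other exposed arrays were lower, with 8.96, 8.51, 8.64 and 8.89 at 3 h, 9.22, 8.88 and 8.61 at 6 h and 9.04, 8.52, 9.09 and 8.83 at 144 h, and air at 144 h read 8.32, 8.01, 8.33 and 9.56. The 4 H2S 24 h arrays thus lay above the other 19, and the change against air of 2.13 (SE 0.368, adjusted p = 0.0513) had the smallest adjusted p of the list. Without animals 18 and 22 Tk1 passed the threshold, with a change of 1.90 (SE 0.297, adjusted p = 0.0338). Of 35 other settings, 5 gave an adjusted p of Tk1 under 0.05, and the values ran from 0.00791 with array weights to 1.00 without animals 6, 14 and 18. Without animal 22 alone it was 0.0181, without animal 16 alone 0.0384, without animal 18 alone 0.155 and without animal 14 alone 0.460. Another Tk1 probe set had a change of 1.28 and one of lower mean signal -0.31, so the probe sets of the gene disagree.

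Rrm1, the large subunit of the reductase that makes deoxynucleotides, read 11.03, 11.23, 10.58 and 12.16 at 24 h of H2S and 10.12, 9.44, 9.35 and 5.35 in air. The largest change of the list, 2.69 (SE 0.663, adjusted p = 0.352), rested in part on air animal 18 at 5.35 and was 1.62 without it. Rrm1 read 9.27, 9.79, 9.57 and 8.77 at 3 h, 9.25, 10.19 and 9.80 at 6 h, 9.79, 9.37, 9.96 and 10.41 at 144 h and 9.42, 8.96, 9.61 and 8.94 in air at 144 h, and all 4 H2S 24 h arrays were higher than any of these. Dut, which keeps uracil out of DNA by removing dUTP, read 11.41, 12.43, 11.59 and 12.04 at 24 h of H2S against 11.06, 11.18, 11.03 and 9.03 in air, a change of 1.29 (SE 0.449, adjusted p = 0.58). Without animal 18 that change was 0.78. At 144 h of H2S it read 12.09, 12.22, 11.15 and 12.06, with a mean 0.01 above that at 24 h, against 10.95, 10.83, 10.62 and 9.81 in air at 144 h. At 3 h and 6 h Dut read 10.35, 11.05, 11.76 and 10.71 and 10.48, 10.78 and 11.40. Tyms, which makes thymidylate, differed from air at 24 h by 1.48 (SE 0.555, adjusted p = 0.606) with overlap, and by 0.98 without animal 18.

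Of the genes for chromatin assembly and histone supply, 3 of 4 had higher means than air at 24 h, with a median change of 0.61. Chaf1a, a subunit of the complex that places histones on new DNA, read 8.95, 9.13, 8.96 and 10.26 at 24 h of H2S and 8.79, 8.55, 7.83 and 8.27 in air at 24 h, a change of 0.96 (SE 0.442, adjusted p = 0.612) without overlap. It read 6.86, 8.13, 8.04 and 7.0 at 3 h, 7.18, 8.72 and 7.70 at 6 h and 7.24, 7.83, 8.08 and 8.58 at 144 h of H2S. In air at 144 h it read 5.77, 4.85, 5.76 and 6.51, below every other array of the study. Slbp, which binds the end of histone messages, read 8.68, 9.24, 7.43 and 9.25 at 24 h of H2S against 8.86, 8.33, 8.82 and 10.09 in air, a change of -0.38 (SE 0.51, adjusted p = 0.811). Its levels were 8.38, 8.59, 7.91 and 7.46 at 3 h, 7.92, 8.84 and 8.17 at 6 h, 8.66, 7.94, 8.17 and 8.62 at 144 h and 7.90, 7.43, 8.09 and 5.57 in air at 144 h, and the groups overlap at 24 h. Without animal 18 the Slbp change was -0.02, and without animal 14 -0.58. Chaf1b, the partner subunit of Chaf1a, differed by 0.26, or 0.61 without animal 18 and 0.04 without animal 14, and Uhrf1, which helps copy DNA methylation, by 1.17 at levels below the filter.

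**Figure D2:**
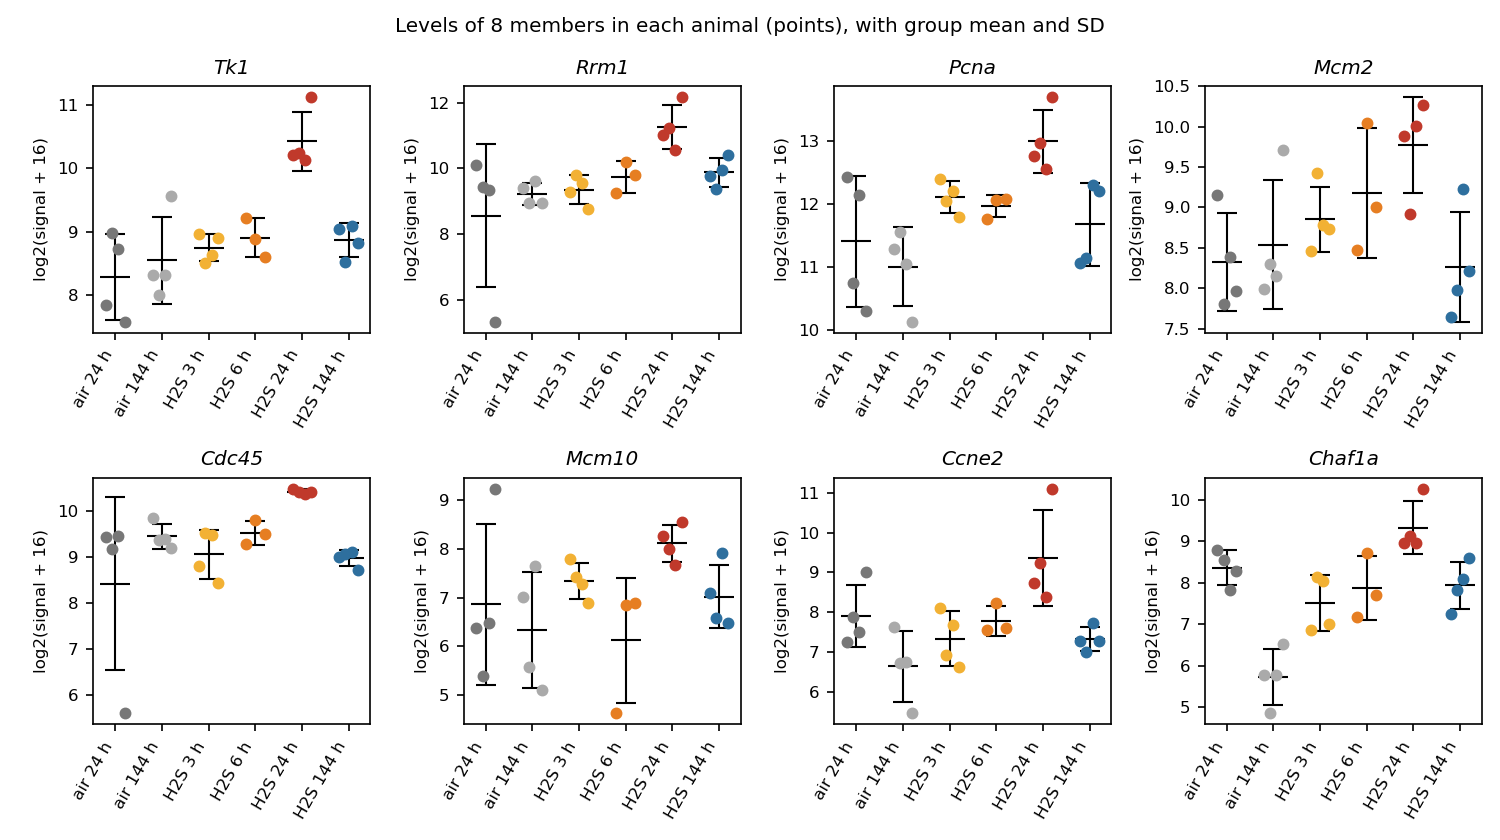
Level in log2(signal + 16) of 8 genes in each animal (points) of the 6 groups, with the group mean and SD (bars); each panel has its own scale. For Tk1, Rrm1, Pcna, Cdc45 and Chaf1a the 4 H2S 24 h animals lie above the 19 others, while Chaf1a is lowest in air at 144 h.

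For 5 of the 39 genes, Cdc45, Pcna, Rrm1, Tk1 and Chaf1a, all 4 H2S 24 h arrays lay above the 19 arrays of the other groups, against 0.141% of all probe sets. These encode a factor of the moving fork, the clamp, 2 enzymes of deoxynucleotide supply and a histone chaperone. Without animals 18 and 22 the count was 7 against the remaining 17 arrays, the same 5 with Gins1 and Ccne2, against 0.247% of all probe sets.

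At the early times the median changes against air were smaller and rested on single animals. At 3 h, 24 of 39 changes against air at 24 h were above 0, with a median of 0.29 where all probe sets had 0.09. No gene passed the adjusted threshold, against 0.0807% of all probe sets, and 1 gene, Mcm3, was higher at an unadjusted p under 0.05 (change 1.23, SE 0.592, or 0.71 without animal 18), against 6.00% of all probe sets. At that threshold 0 genes were lower, against 3.79%. For 0 genes all 3 h arrays lay above air, against 3.02%, and for 1 gene, Orc1, all lay below, against 1.55%. Without animal 18 the median at 3 h was 0.04, with 20 of 39 changes above 0, and with array weights it was -0.00131, so it has no stable sign. The count at an unadjusted p under 0.05 ran from 0, for example without animal 16 (8.58% of all probe sets), to 4 without animal 15 (8.83%). At 6 h the median was 0.31, with 23 of 39 changes above 0 (31 of 39 with median centring, 28 with quantile normalization) and no gene past the adjusted threshold, against 0.00504%. Only Pole was higher at an unadjusted p under 0.05 (change 1.72, SE 0.771), against 3.45% of all probe sets, and 0 genes were lower, against 2.36%. Pole was also the 1 gene whose 6 h arrays all lay above air, against 2.49%, and Orc1 the 1 gene whose 6 h arrays all lay below, against 2.02%. The median at 6 h was 0.08 without animal 9, 0.11 without animal 18 and 0.45 without animal 8, and 0.00718 with array weights. The higher count was 0 without animal 9 (3.66% of all probe sets), 3 without animal 17 (6.48%) and 6 without animal 15 (6.63%). No air animals were sampled at 3 h or 6 h, so both groups and the H2S 24 h group share the same 4 air animals. The step from 3 h to 6 h had 23 of 39 changes above 0 and a median of 0.19, with no gene past the adjusted threshold, against 0.00504% of probe sets, and 2, Pola1 and Tyms, higher at an unadjusted p under 0.05, against 2.25%. In the lower direction there were 0, against 1.96%. Arrays at 6 h all lay above those at 3 h for 1 gene, Tyms, against 3.16%, and all below for 1 gene, Mcm10, against 3.78%. The median of this step turned to -0.03 without animal 9, and was -0.30 when only the 19 arrays that have an RNA integrity value entered the fit and -0.28 when that value was also a term, so it has no stable sign.

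Between 6 h and 24 h of H2S, a comparison that uses no air animal, 38 of 39 changes were above 0. Their median was 0.79, where all probe sets had a median of -0.01. No gene of the list passed the adjusted threshold, against 0.0101% of all probe sets, and 8 were higher at an unadjusted p under 0.05, against 1.77%, and 0 lower, against 1.30%. For 13 genes the 24 h arrays all lay above the 6 h arrays, against 3.40%, and for 0 genes all lay below, against 3.13%. The smallest adjusted p was that of Tk1, with a change of 1.52 (SE 0.398, adjusted p = 0.542), and Mcm10 had the largest change, 1.99 (SE 0.724, adjusted p = 1). Ccne2 differed by 1.57, Rrm1 by 1.5, Chaf1a by 1.46, Gins1 by 1.26 and Ccne1 by 1.23, all without overlap. Rpa2, with -0.36, was the only gene with a change below 0. Animal 14 carried part of this step: without it 34 of 39 changes were above 0, their median was 0.50, and 4 genes were higher at an unadjusted p under 0.05, against 1.17% of all probe sets. Without animal 8 that count was 3, against 1.55%, and 32 changes were above 0. Without animals 18 and 22 it was 15, against 3.72%. Means of ciliated cell and of secretory cell markers were higher after this step as well, with none of these genes past the adjusted threshold. All 8 ciliated cell genes had higher means at 24 h than at 6 h, with a median of 1.03 (0.74 without animal 14). All 9 secretory and goblet cell genes did too, with a median of 1.22 (1.00 without animal 14) and 4 of them at an unadjusted p under 0.05. Both medians exceed the 0.79 of the replication genes. The other marker lists differed: olfactory epithelium had 7 of 9 changes above 0 (median 0.76) and basal cells 6 of 8 (median 0.27). Leukocytes had 3 of 11 above 0 (median -0.44) and the stroma list 1 of 9 (median -0.46). The level of the ciliated list was 0.62 to 1.91 at 6 h and 1.31 to 3.18 at 24 h, and that of the secretory list 0.92 to 2.33 and 2.35 to 3.61, as means over each list relative to all probe sets of the array. Their part in the replication gene levels was not tested. The 6 h group had 3 animals, which limits its precision.

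**Figure D3:**
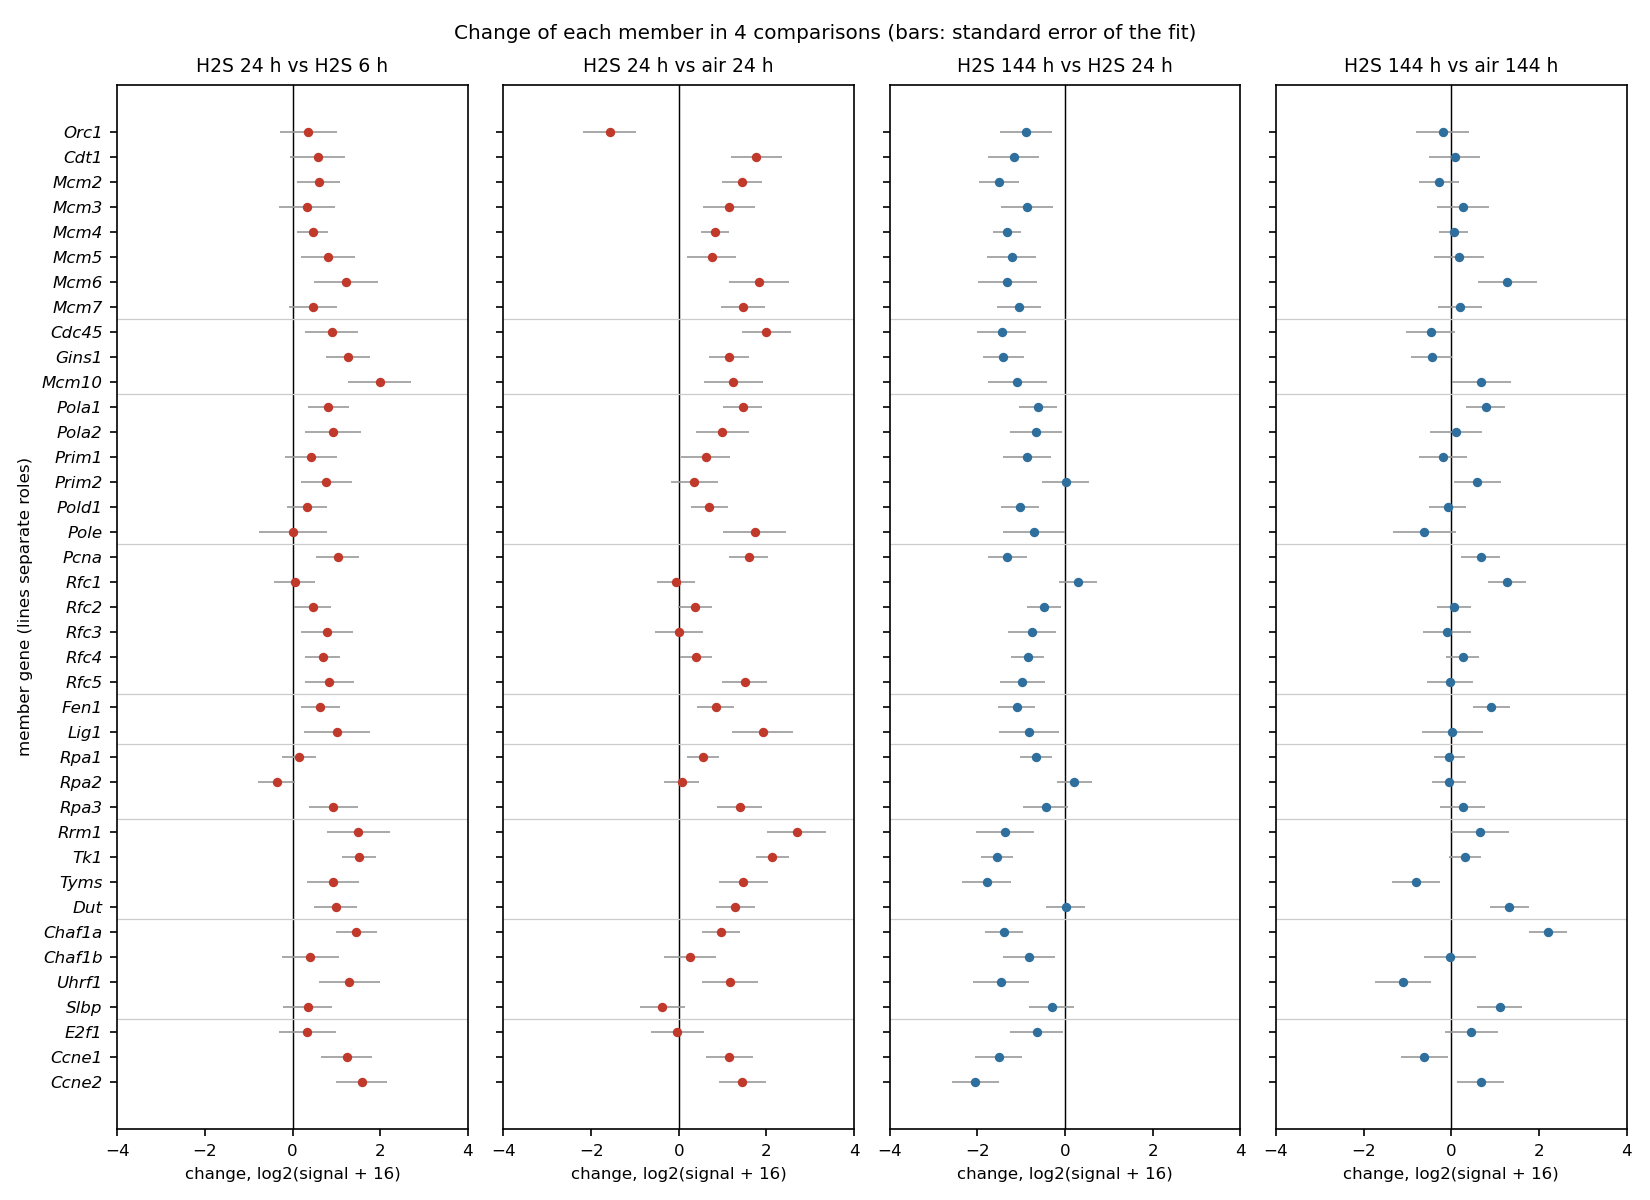
Change of each of the 39 genes (rows, grouped by role) in 4 comparisons, as the difference of group means in log2(signal + 16) with the standard error of the fit. The points lie mostly right of 0 for H2S at 24 h against H2S at 6 h (38 of 39) and against air (34 of 39), mostly left of 0 for H2S at 144 h against 24 h (35 of 39), and around 0 against air at 144 h.

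After 5 days of exposure the levels were lower than at 24 h. Of the 39 changes from 24 h to 144 h of H2S, 35 were below 0, with a median of -0.97 against -0.01 for all probe sets. No gene passed the adjusted threshold, as was true of all probe sets (0% called), and 14 were lower at an unadjusted p under 0.05, against 1.52%, and 0 higher, against 1.32%. For 17 genes the H2S 144 h arrays all lay below the H2S 24 h arrays, against 2.46% of all probe sets, and for 0 genes all lay above, against 1.37%. The changes were -1.55 (SE 0.368, adjusted p = 0.58) for Tk1, -1.33 (SE 0.328, adjusted p = 0.63) for Mcm4 and -2.04 (SE 0.534, adjusted p = 0.862) for Ccne2. Mcm2 differed by -1.51, Tyms by -1.79, Cdc45 by -1.44, Pcna by -1.32 and Ccne1 by -1.52. The 4 genes with a change above 0 were Rfc1 (0.30), Rpa2 (0.21), Prim2 (0.02) and Dut (0.01). Without animal 14 the median was -0.67. With arrays weighted by their quality, Mcm2, Mcm4, Cdc45, Pcna, Tk1, Tyms and Ccne2 passed the adjusted threshold, against 0.298% of all probe sets in that fit, and the changes of these 7 lay between -2.20 and -1.43.

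Against air at 144 h, the H2S 144 h group was split between higher and lower means. Of 39 changes 24 were above 0 and their median was 0.10, with -0.02 for all probe sets. The median was -0.00474 without animal 20 and 0.24 without animal 21 or without animal 22, so it has no stable sign. With median centring 33 were above 0 and the median was 0.44, with 0.32 for all probe sets. No gene passed the adjusted threshold, nor did any other probe set (0% called). At an unadjusted p under 0.05, 5 genes were higher, against 3.80% of all probe sets, namely Chaf1a, Dut, Rfc1, Fen1 and Slbp, and 0 were lower, against 793 of the 19822 probe sets (4.0%). Groups did not overlap for 4 genes in the higher direction, against 2.50%, and for Cdc45 in the lower direction, against 3.43%. The change of Chaf1a was 2.21 (SE 0.442, adjusted p = 0.258), that of Dut 1.33 (SE 0.449, adjusted p = 0.58) and that of Rfc1 1.26 (SE 0.431, adjusted p = 0.582). The higher count was 2 without animal 22, against 3.97%, and 3 without animal 20 (5.11%) or animal 23 (2.83%). Without animal 22 the changes of the 3 genes were 2.47, 1.08 and 0.74. Fen1 differed by 0.91 and Slbp by 1.10, or by 0.52 and 0.54 without that animal. Other probe sets had smaller or opposite changes against air at 144 h, 0.32 for Dut and 0.33 and -0.63 for Rfc1. Those of Slbp were 0.69 and -1.18, against 1.10 for the probe set used. The -0.63 of Rfc1 and the 0.69 and -1.18 of Slbp came from probe sets below the filter. Tk1, by contrast, differed from air at 144 h by 0.32, Pcna by 0.67, Mcm2 by -0.28 and Cdc45 by -0.47. Without animal 22 the change was 0.65 for Tk1, 0.38 for Pcna and 0.12 for Mcm2. Over the 39 genes 24 changes moved by over 1.5 times without that animal and 5 turned sign.

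The air groups also had unequal means for some of these genes. From air at 24 h to air at 144 h the median change was -0.07, with 17 of 39 above 0, and the median ran from -0.20 without animal 18 to 0.01 without animal 15. No gene passed the adjusted threshold (0% of probe sets did). At an unadjusted p under 0.05, 5 genes were lower, against 3.27% of all probe sets, and 1 higher, against 5.10%. Without animal 22 the lower count was 2, against 2.58%. Chaf1a differed by -2.64 (SE 0.442, adjusted p = 0.103) and Slbp by -1.78 (SE 0.51, adjusted p = 0.542), both without overlap. Air arrays at 144 h all lay below those at 24 h for 4 genes, Chaf1a, Slbp, Mcm4 and Orc1, against 0.848% of all probe sets, and all above for 0 genes, against 1.24%. The change against air at 144 h minus the change against air at 24 h had a median of -0.78 over the 39 genes, with 31 below 0, against -0.09 for all probe sets. No gene passed the adjusted threshold for this difference (0% of probe sets did), and 9 were below 0 at an unadjusted p under 0.05, against 2.91%, and 1 above 0, Rfc1, against 1.78%. Tk1 was among the 9, with -1.82 (SE 0.521, adjusted p = 0.946). Without animal 14 there were 5 below 0, against 2.74%. Without animal 14 this median was -0.42, and without animals 6, 14 and 18 it was -0.34.

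Genes of mitosis, the division that follows S phase, were read beside the replication genes from a list of 30, of which 27 were measured. At 24 h of H2S all 27 had means above air, with a median change of 1.86, and 20 were so at an unadjusted p under 0.05, against 4.80% of all probe sets, with none past the adjusted threshold. Against 6 h all 27 were again higher in mean, with a median of 2.28, and 24 were so at an unadjusted p under 0.05, against 1.77%. Racgap1, which organises the division furrow, was the only one past the adjusted threshold there, with 11.48, 11.93, 10.41 and 12.45 at 24 h against 8.79, 9.51 and 8.48 at 6 h, a rise of 2.64 (SE 0.439, adjusted p = 0.0461). Of all probe sets 0.0101% passed in that comparison. The call of Racgap1 was close to the threshold: of 35 other settings 10 kept it, and the adjusted p was 0.319 without animal 14 and 0.434 without animal 10. From 24 h to 144 h of H2S, 26 of 27 were lower in mean, with a median of -1.70. Top2a, the topoisomerase that untangles copied chromosomes, read 10.37, 11.12, 9.67 and 11.74 at 24 h of H2S and 8.69, 8.02, 8.43 and 6.78 in air, a change of 2.74 (SE 0.527, adjusted p = 0.156). The median changes of the 2 lists were not tested against each other.

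**Figure D4:**
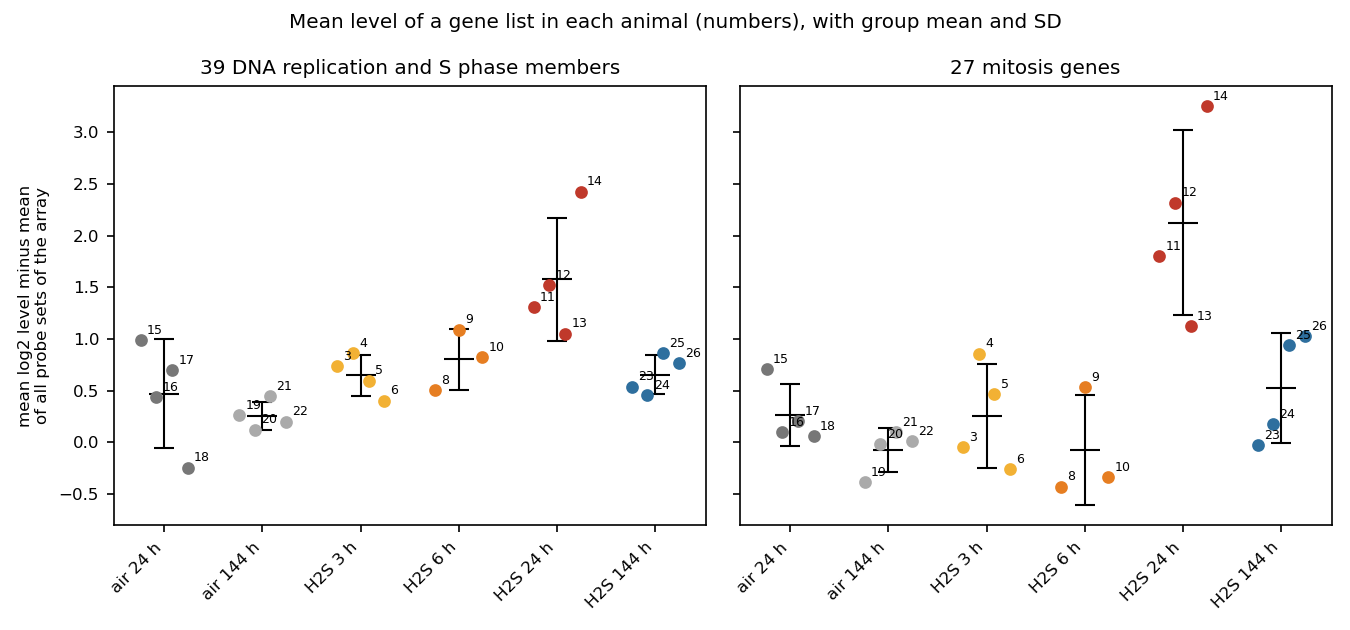
Mean log2 level of the 39 replication genes (left) and of 27 mitosis genes (right) in each animal, relative to the mean of all probe sets of its array, with the group mean and SD; the numbers are animals. In both lists animal 14 is the highest and the H2S 24 h group has the highest mean, 1.58 for the replication genes and 2.13 for the mitosis genes.

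Of 54 further replication and S phase genes, 48 were measured, and 39 had means above air at 24 h, with a median change of 0.51. None passed the adjusted threshold, and 10 differed at an unadjusted p under 0.05 in either direction, against 4.80% higher and 3.29% lower of all probe sets. The median was 0.26 without animal 14. The helicase Recql4 read 8.31, 7.59, 7.74 and 8.83 against 6.74, 6.25, 6.18 and 6.59 in air, a change of 1.68 (SE 0.475, adjusted p = 0.447), and the ubiquitin ligase Rfwd3 differed by 1.86 (SE 0.596, adjusted p = 0.562), or 0.93 without animal 18. Of 30 regulators of the step from G1 to S, 28 were measured and 19 had means above air, with a median of 0.42, and again none passed the adjusted threshold while 5 differed at an unadjusted p under 0.05 in either direction, against the same 4.80% and 3.29%. The median of these regulators was 0.09 without animal 18, with 16 of 28 above 0. Ccna2, the S phase cyclin, read 10.00, 11.16, 9.14 and 12.36 at 24 h of H2S against 9.41, 7.60, 8.21 and 5.39 in air, a change of 3.01 (SE 0.744, adjusted p = 0.352). Myc, a growth factor response gene, read 7.54, 6.58, 7.44 and 7.15 against 8.80, 7.70, 8.25 and 8.47, a change of -1.13 (SE 0.43, adjusted p = 0.612). The Cdk inhibitor Cdkn1a differed by 0.78 (SE 0.54, adjusted p = 0.661).

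Mki67, a standard marker of cycling cells and no member of the list, read 11.30, 11.17, 9.91 and 12.16 at 24 h of H2S and 10.37, 9.39, 9.23 and 7.29 in air. Over the 23 arrays Pcna followed Mki67 with r = 0.775 (permutation p = 1e-05, the smallest the permutations can give) and rho = 0.761 (permutation p = 5e-05). Without the 2 arrays farthest from the median of Mki67, r was 0.674, and within the 19 arrays outside the H2S 24 h group it was 0.579 (permutation p = 0.0098, adjusted p = 0.029). Mcm2 had r = 0.645 (permutation p = 0.00095) and rho = 0.612 (permutation p = 0.0024), with r = 0.482 without the 2 farthest arrays. In the 19 arrays outside the H2S 24 h group it was 0.466 (permutation p = 0.045, adjusted p = 0.068), so the relation of Mcm2 rests in part on that group. Tk1 had r = 0.678 (permutation p = 0.00039) and rho = 0.476 (permutation p = 0.023) over the 23 arrays. The 4 H2S 24 h arrays form a cluster of their own for Tk1, and over the other 19 arrays r was 0.175 and rho 0.123 (permutation p = 0.48 and 0.62). Permutations ran over arrays without regard to group, so these p values take in differences between groups as well. As deviations from the group means, r was 0.631 for Pcna (permutation p = 0.0013, adjusted p = 0.004). Taken the same way, r was 0.509 for Mcm2 (permutation p = 0.013, adjusted p = 0.02) and 0.276 for Tk1 (permutation p = 0.2). Deviations were permuted over all 23 arrays with no allowance for the group means removed, so the p values of the deviations tend to be too small. The 3 genes were the relations computed, and adjusted values are over these 3.

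Markers of cell types were read at 24 h beside the replication genes. The 11 leukocyte genes had a median change against air of -0.38, with 3 of 11 above 0, and mean levels of 0.71 to 1.41 in the H2S 24 h animals against 0.46 to 2.23 in air. The 8 ciliated cell genes were all higher in mean, with a median of 0.47 (0.22 without animal 14) and levels of 1.31 to 3.18 against 1.39 to 2.24. The basal cell genes, of which 8 were measured, had a median change of 0.38 (0.17 without animal 14, 0.70 without animal 18), with 4 of 8 above 0 and levels of 1.67 to 2.68 against 1.05 to 2.09. The 9 secretory and goblet cell genes had the largest median of the marker lists, 0.62, with 6 of 9 above 0 and levels of 2.35 to 3.61 against 2.13 to 2.91. Among them Agr2, a goblet cell protein of mucin folding, differed by 1.62 (SE 0.599, adjusted p = 0.606). That median was 0.32 without animal 14 and 0.39 without animal 18. The olfactory epithelium list had a median of 0.27, with 6 of 9 above 0 and levels of 0.25 to 1.15 against -0.61 to 1.27. Krt15, a keratin of basal cells, had the smallest p of the basal list, with a change of 2.32 (SE 0.627, adjusted p = 0.396). The stroma list had a median of -0.44, with 3 of 9 above 0 and levels of 3.27 to 4.60 against 3.52 to 4.69. Levels here are means of a list's log2 values minus the mean of all probe sets of the array, and the part of any of these cell types in the replication gene levels was not tested.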

How the data were processed

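RNA was measured on 23 Affymetrix Rat230_2 arrays. The deposited values are intensity, a linear signal per probe set, scaled to a trimmed mean of about 500 per array; per the submitters' processing notes GCOS 1.0 was used, with settings not given in the sources used here. The signals were not normalized again. Values were taken as log2(signal + 16), which understates changes of low signals. Of 31099 probe sets, 19848 passed the filter, and 19822 were tested, as the 57 control probe sets were left out whether they passed or not. All arrays entered 1 fit with a mean per group (limma 3.58.1, R 4.3.3, lmFit then eBayes, two-sided), with Benjamini-Hochberg adjustment over all tested probe sets. The fit was tested on simulated data. Correlations used permutation tests with 100000 resamples, two-sided. The number of arrays limits the precision. Nothing in the labels pairs animals or names a batch. The genes, lists and tests were chosen with earlier results of these data known. Values in every array were given for genes past the threshold, for the 4 smallest p in each comparison against air and from 6 h to 24 h, and for Mcm2, Pcna, Tk1, Ccne1 and E2f1. Pola1, Orc1, Racgap1, Recql4 and other genes with array values were added after their values were seen. Sequences were not used here.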

Additional observations from a re-analysis of the deposited data

Results flagged for a closer look

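Single arrays that stood far from the rest of their group were found by Dixon's test in 8 of the 95 gene and group pairs examined, where chance gives about 1 in 20. Animal 14 lay above the other 3 H2S 24 h animals for Cdt1 (10.29 against 9.39 to 9.42), Mcm7 (12.27 against 10.84 to 11.04), Tk1 (11.12 against 10.13 to 10.23) and Chaf1a (10.26 against 8.95 to 9.13). Animal 18 lay below the other 3 air 24 h animals for Cdc45 (5.62 against 9.18 to 9.45), Rrm1 (5.35 against 9.35 to 10.12) and Dut (9.03 against 11.03 to 11.18). Animal 25 lay below the other H2S 144 h animals for Dut (11.15 against 12.06 to 12.22).

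Rrm2, the small subunit of ribonucleotide reductase, was read only together with Rrm2l1, through probe sets that carry both symbols and that no comparison above uses. The brighter of them had a mean of 11.36 at 24 h of H2S against 8.59 in air at 24 h. Its levels were 11.20, 11.39, 10.53 and 12.31 in animals 11 to 14 and 10.00, 9.35, 9.12 and 5.91 in animals 15 to 18, a change of 2.76 (SE 0.734, adjusted p = 0.379) without overlap. It read 9.49, 9.75, 9.14 and 6.56 at 3 h, 8.39, 9.26 and 8.51 at 6 h, 8.84, 8.35, 9.71 and 9.24 at 144 h and 8.73, 9.62, 8.43 and 7.58 in air at 144 h, all below the H2S 24 h animals. The other shared probe set had a change of 0.13 at lower signals.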

How the results depend on the processing

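Over 12 other settings and with each animal left out in turn, the median change of the 39 genes kept its sign at 24 h against air and from 6 h to 24 h, and likewise from 24 h to 144 h. More genes passed the threshold at 24 h against air with a pseudocount of 64 (1, Tk1), without animals 18 and 22 (1, Tk1) and with array weights (2, Rrm1 and Tk1), and 0 to 1 with an animal left out. The share of all probe sets called in these fits was 0.0101%, 0.0158% and 0.262%. Array weights also gave 3 from 6 h to 24 h (Mcm10, Rrm1, Tk1), against 0.469% of all probe sets, and 7 from 24 h to 144 h, against 0.298%. Without animals 6, 14 and 18, whose labels disagree, the median at 24 h against air was 0.56 and that of the difference between the times -0.34; leaving out 1 animal gave 0.85 to 1.24 and -1.02 to -0.42. At 144 h against air the median was 0.44 with median centring and 0.42 with RNA integrity as a model term, which gave -0.42 for the difference between the times. With median centring the median of all probe sets was 0.32 at 144 h and 0.34 at 24 h against air, so each member's change there is to be read against it. From 3 h to 6 h the median was -0.28 with that term and -0.30 in the same 19 arrays without it. The correlation with Mki67 was no longer past the threshold for Tk1 within groups (0.276) and outside the H2S 24 h group (0.175), nor for Mcm2 outside it (0.466). Other causes were not tested. Chosen after the data were seen were the count of genes with all H2S 24 h arrays above all others, 6 without animal 18 and 6 without animal 22 against 5, and the medians of the marker and other lists with an animal left out. The motif search was not run, nor was the correlation of Rrm2. The number of animals limits all of these values.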

Other observations

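Of the genes with several probe sets, some gave different changes by probe set at 24 h against air. The probe sets of Lig1 gave 1.91 and 0.94, those of Dut 1.29 and -0.04, those of Rfc5 1.5 and 0.68, and those of Ccne2 1.45 and 0.21. Cdc45 had 4 probe sets, with changes of 2.00, 1.77, 0.97 and -1.12, of which the last 2 were below the filter. Slbp gave -0.38, -1.20 and -0.51, Rfc1 gave -0.06, -0.43 and -1.03, and Mcm10 gave 1.24 and 0.17. With the mean of all probe sets of each gene, the median change of the 39 genes at 24 h against air was 0.91.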
